A study of Ovis aries with 36 samples.

Results

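Most of the enzymes described here carry long-chain fatty acids into mitochondria or break them down there, while ACAA1 acts in peroxisomes. All were followed in muscle and in 2 adipose depots of sheep fetuses. They were chosen by name from a list of 10 genes: every locus carrying a listed name was taken, and loci of the same name were summed. Of the 10 genes, 8 were found in the files of all 3 tissues, among 22851 gene names in all, namely CPT1A, CPT1B, CPT2, ACADL, ACADVL, HADHA, HADHB and ACAA1. ACADM and ACAA2 were not analysed here. Loci were taken by name and not by their measured values, but the list was drawn up with earlier results of these data known.

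Perirenal fat, subcutaneous fat and the longissimus dorsi muscle were sequenced as 36 RNA libraries, with 4 pools per tissue and maternal diet. The dams were Polypay ewes bred to the same ram, and from mid gestation to tissue collection in late gestation they received limit-fed whole shell corn (CN), limit-fed dried distillers grains from corn (DG) or alfalfa haylage at will (HY, named hay in the sample labels). Each diet had 2 pools of female fetuses (F1 and F2) and 2 of male fetuses (M1 and M2). The paper lists a single fetus for female pool 2 of CN (F2 by its number). In every diet it lists littermates in different pools. The p-values therefore measure the spread between pools that are not all unrelated. No diet was an untreated control, and the 3 diet comparisons within a tissue share pools.

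Beta-oxidation shortens a fatty acid by repeated cycles in the mitochondrial matrix, each cycle releasing acetyl-CoA and reduced electron carriers. A long-chain fatty acid enters as an acylcarnitine, made at the outer membrane by a CPT1 enzyme and turned back into acyl-CoA inside by CPT2, and malonyl-CoA holds CPT1 in check when fat is being made. In textbook accounts CPT1A is the form of liver and many other tissues and CPT1B the form of muscle, while fetal perirenal fat of sheep is known as a thermogenic depot that burns fatty acids around birth.

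The libraries held 6705766 to 29625146 counts each, and the median was 20143802 for muscle, 13881270.5 for subcutaneous and 10776612 for perirenal pools. Levels are given as CPM, counts relative to the library size, scaled over all 36 libraries by edgeR's TMM method, so they can be compared between libraries for the same gene but not between genes, because the counts were not divided by gene length. The tissue labels were checked against lists of marker genes. The 10 measured skeletal muscle fibre markers (of 12 listed) summed to between 111020 and 162760 CPM in muscle and to between 13.73 and 548.09 CPM in perirenal pools. In subcutaneous pools the same sum ran from 762.59 CPM in HY F1 to 116490 CPM in DG F1, with 5 of the 12 pools at 49581 CPM or above, so these libraries held very unequal amounts of muscle marker RNA. The 7 measured adipocyte markers (of 8 listed) summed to 95.6 to 200.1 CPM in muscle, 2106 to 11312 CPM in subcutaneous and 5903 to 15370 CPM in perirenal pools, and leptin (LEP) was at 0 in all 12 muscle pools. UCP1, the uncoupling protein of brown adipocytes, had medians of 642 CPM in perirenal pools, 61.4 CPM in subcutaneous pools and 0 in muscle. The 8 brown adipocyte markers, UCP1 among them, had median sums of 1199 CPM in perirenal, 297 CPM in subcutaneous and 485 CPM in muscle pools. PPARGC1A and COX7A1 of that list had their highest medians in muscle (53.9 and 426 CPM). ELOVL3 had its highest in subcutaneous pools (2.90 CPM), and the rest of the list in perirenal pools. In bulk tissue, fewer cells of a type and less RNA per cell cannot be told apart.

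The tissues differed far more than the diets. Between muscle and perirenal adipose tissue, 7 of the 8 enzymes passed FDR 0.05 in the quasi-likelihood test of edgeR, adjusted over 14565 genes by the Benjamini-Hochberg method, 5 higher in perirenal tissue (CPT1A, ACADVL, HADHA, HADHB and ACAA1) and 2 higher in muscle (CPT1B and ACADL). The background for this contrast was high, since 40.9% of all genes tested were called higher in perirenal tissue and 39.3% higher in muscle. Between muscle and subcutaneous adipose tissue 6 of 8 passed, 4 higher in subcutaneous tissue (CPT1A, ACADVL, HADHA and HADHB; background 36.5%) and 2 higher in muscle (CPT1B and ACADL; background 36.6%). Between the adipose depots all 8 passed, 6 higher in perirenal tissue (background 35.3%) and 2, ACADVL and HADHB, higher in subcutaneous tissue (background 32.6%). The median log2 difference of the 8 enzymes was 0.59 from muscle to perirenal tissue against 0.03 over all genes. It was 0.34 from muscle to subcutaneous tissue against -0.00280, and 0.57 from subcutaneous to perirenal tissue against 0.04. Without ACADVL, which had few counts in muscle, the medians were 0.52, -0.09 and 0.64 in the same order. Of those 7 enzymes, 3 were higher and 4 lower in subcutaneous tissue than in muscle. With counts scaled by library totals alone, the median of all genes moved to 0.32, 0.14 and 0.18, and the share of calls that were higher in the second tissue went from 51.0% to 62.5%, from 49.9% to 57.9% and from 52.0% to 62.3%. No enzyme called in a tissue comparison changed direction under that scaling, although ACADL between muscle and perirenal tissue and ACADVL between the depots lost their calls.

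**Figure D1:**
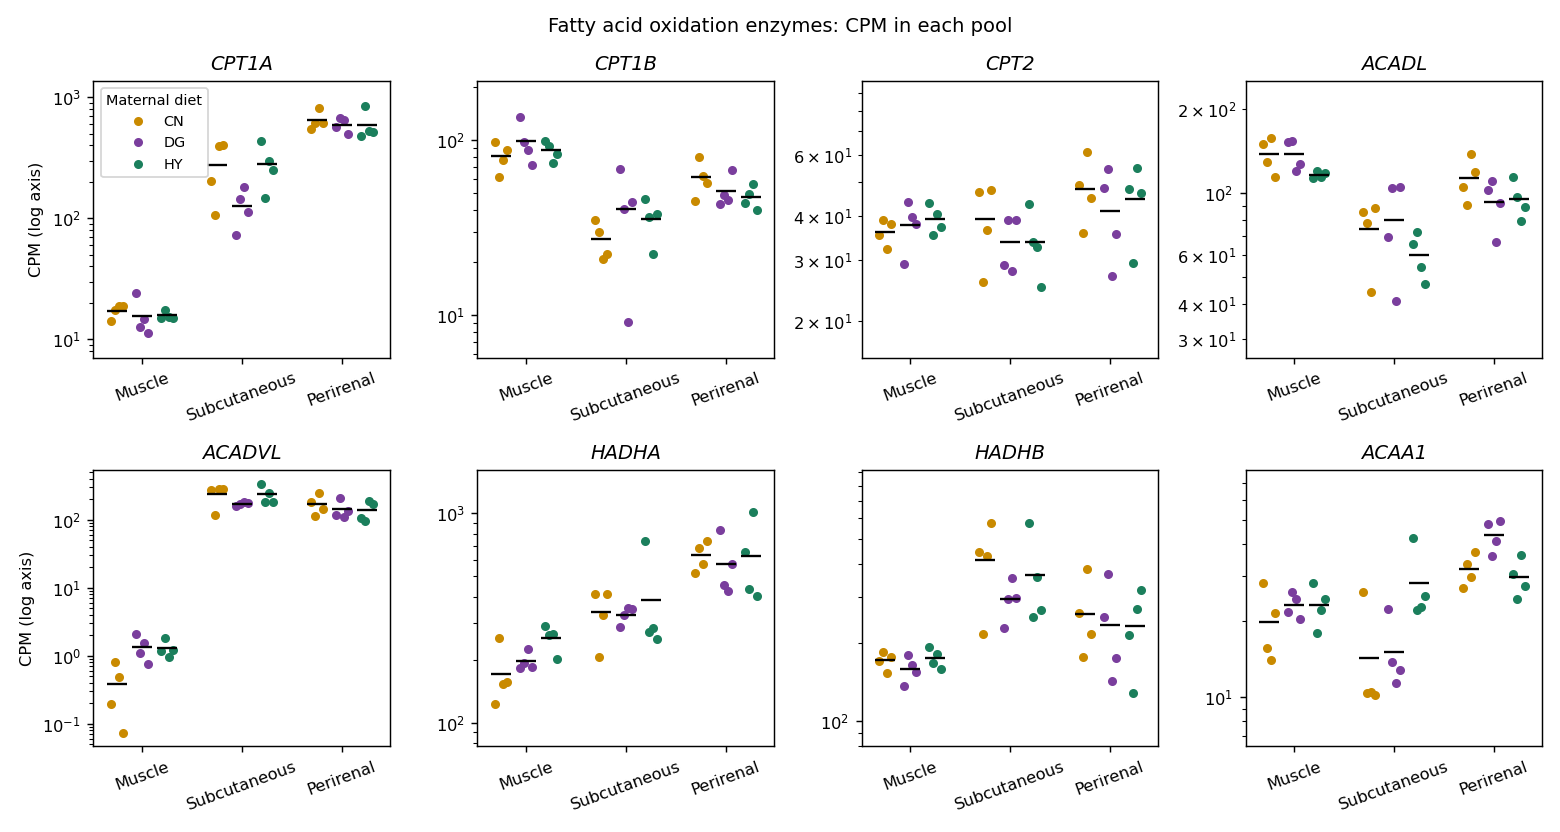
CPM of the 8 enzymes in each of the 36 pools (log axis, a separate range for each gene), by tissue and, within a tissue, by maternal diet; black lines are means of 4 pools. CPT1A separates all 3 tissues, from at most 24.3 CPM in muscle to at least 475 CPM in perirenal pools, while ACADVL is at most 2.045 CPM in muscle and at least 96.8 CPM in every adipose pool.

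CPT1A, the carnitine palmitoyltransferase that sets the rate of entry in most tissues, lies in the files at XLOC_018417 (muscle), XLOC_018274 (subcutaneous) and XLOC_018679 (perirenal), on chromosome 21 of Oar_v3.1 from 45444762 to 45488917, 45489090 and 45512949. Its 12 muscle pools ranged from 11.3 to 24.3 CPM with a median of 15.2. Subcutaneous pools ranged from 72.7 to 438 CPM with a median of 191, and perirenal pools from 475 to 850 CPM with a median of 592. The 3 tissues did not overlap in any pool. Perirenal tissue was 37.6-fold above muscle (log2 difference 5.23, SE 0.22, FDR 3.7e-20 by edgeR) and subcutaneous tissue 13.2-fold above muscle (log2 3.73, SE 0.21, FDR 6.5e-17 by edgeR). The step from subcutaneous to perirenal tissue was 2.84-fold (log2 1.51, SE 0.19, FDR 2.3e-08 by edgeR). The spread between pools was widest in subcutaneous tissue, with a coefficient of variation of 55.5% against 21.0% in muscle and 19.4% in perirenal tissue.

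CPT1B, the isoform of muscle fibres, was highest in muscle and lowest in subcutaneous tissue. It lies at XLOC_024308, XLOC_024052 and XLOC_024580 in muscle, subcutaneous and perirenal files, within a span on chromosome 3 from 224032226 to 224138531 that the files give to several loci at once. Muscle pools held 61.8 to 136 CPM (median 87.8), perirenal pools 39.9 to 80.4 CPM (median 49.0) and subcutaneous pools 9.11 to 68.1 CPM (median 35.7). Perirenal tissue was below muscle by a log2 difference of -0.74 (SE 0.18, FDR 0.000489 by edgeR) and subcutaneous tissue by -1.38 (SE 0.19, FDR 8.8e-08 by edgeR), with overlapping pools in both cases. Perirenal pools were above subcutaneous ones by 0.64 (SE 0.18, FDR 0.00287 by edgeR). Subcutaneous CPT1B was highest, at 68.1 CPM, in the pool with the most muscle marker RNA (DG F1). It was lowest, at 9.11 CPM, in DG M1, which held 834 CPM of muscle markers. HY F1, with the least muscle marker RNA of all (762.59 CPM), went against this order. It held 46.1 CPM of CPT1B, more than every other subcutaneous pool except DG F1.

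CPT2, the inner-membrane partner of both CPT1 enzymes, varied least between tissues. Its locus is on chromosome 1 from about 27463105 to 27487749 (XLOC_000187 in muscle), and its medians were 38.0 CPM in muscle, 35.0 CPM in subcutaneous and 47.3 CPM in perirenal tissue. The differences from muscle were 0.24 for perirenal tissue (SE 0.12, FDR 0.0725 by edgeR) and -0.09 for subcutaneous tissue (SE 0.12, FDR 0.525 by edgeR), neither past the threshold. Perirenal pools were above subcutaneous ones by 0.33 (SE 0.12, FDR 0.0195 by edgeR), a call that was lost when CN M1, DG F1, HY M1 or HY M2 was left out of every tissue (FDR 0.112, 0.0583, 0.0603 and 0.0613 by edgeR). Scaling by totals alone brought the perirenal difference from muscle past the threshold (log2 0.53, FDR 0.000257 by edgeR), as did leaving out CN F2 or HY F2 (FDR 0.0299 and 0.0451 by edgeR).

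**Figure D2:**
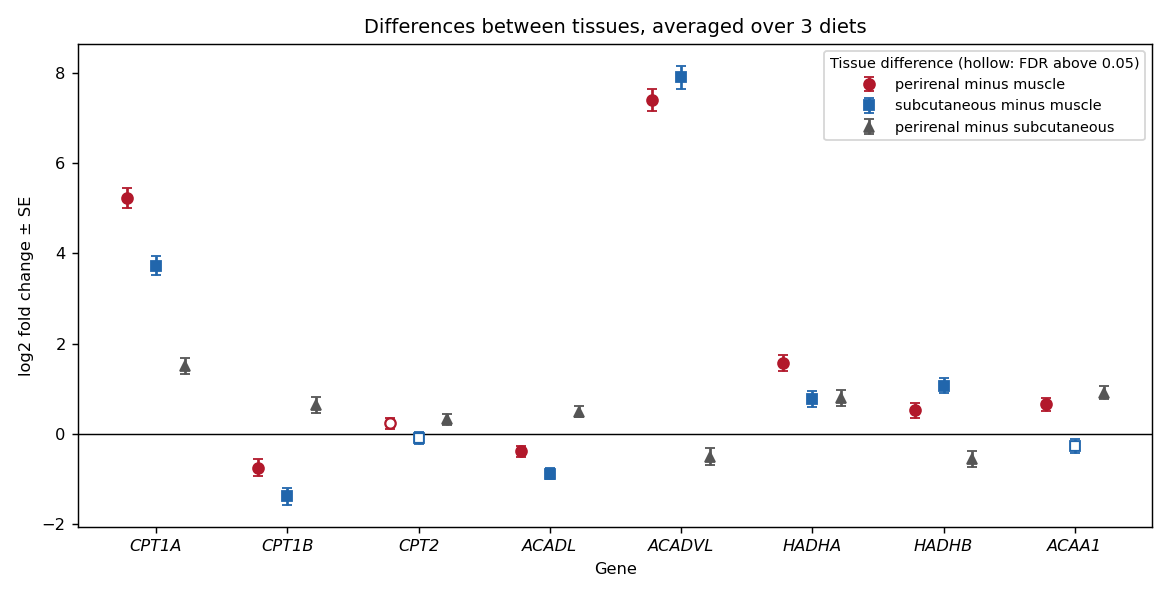
Log2 differences between tissues for the 8 enzymes, averaged over the 3 diets, with bars of 1 standard error from the edgeR fit of all 36 libraries; hollow markers did not pass FDR 0.05. CPT1A and ACADVL stand well above 0 in both adipose depots against muscle, CPT1B and ACADL below 0, and CPT2 reaches at most 0.33.

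ACADL and ACADVL are acyl-CoA dehydrogenases, which catalyse the opening step of each cycle and pass electrons to the electron transfer flavoprotein. ACADL, the long-chain form, is on chromosome 2 from 210786364 to 210840199 in the muscle assembly (XLOC_015812) and was most abundant in muscle. Muscle pools held 113.5 to 157 CPM (median 123.5), perirenal pools 67.0 to 138 CPM (median 99.5) and subcutaneous pools 41.2 to 105 CPM (median 71.3). No subcutaneous pool reached the lowest muscle pool, at a log2 difference of -0.88 (SE 0.13, FDR 3.5e-07 by edgeR). Perirenal tissue overlapped both others and lay 0.38 below muscle on the log2 scale, with a difference of -0.38 (SE 0.13, FDR 0.00691 by edgeR) that shrank to -0.09 (FDR 0.498 by edgeR) when libraries were scaled by totals alone. Between depots ACADL was 0.49 higher in perirenal tissue (SE 0.13, FDR 0.00102 by edgeR).

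ACADVL, the very-long-chain dehydrogenase of the inner membrane, gave the largest difference of the 8, and its muscle values rest on very few reads. Subcutaneous pools held 116 to 341 CPM (median 185) and perirenal pools 96.8 to 244 CPM (median 140), against 0.0736 to 2.045 CPM (median 1.04) in muscle, that is 1 to 42 counts per muscle library. The log2 difference from muscle was 7.90 for subcutaneous (SE 0.25, FDR 7.3e-23 by edgeR) and 7.40 for perirenal tissue (SE 0.25, FDR 1.6e-22 by edgeR). In the muscle files ACADVL (XLOC_004133, chromosome 11 from 26540105 to 26578490) shares its listed span with the loci of DLG4 and DVL2, as it does in the adipose files. DVL2, a signalling gene, had medians of 71.3 CPM in muscle, 103 CPM in subcutaneous and 278 CPM in perirenal tissue, and DLG4 had 6.34, 8.08 and 12.5 CPM. Loci were assembled separately for each tissue, and whether reads of this gene were assigned differently in muscle was not tested. Without ACADVL the counts of called enzymes were 6 of 7, 5 of 7 and 7 of 7 in the 3 tissue comparisons. Between depots ACADVL was 0.50 lower in perirenal than in subcutaneous tissue, a difference of -0.50 (SE 0.18, FDR 0.0154 by edgeR) that was lost with totals alone (FDR 0.0907 by edgeR) and without HY F1 (FDR 0.0697 by edgeR).

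HADHA and HADHB encode the alpha and beta subunits of the mitochondrial trifunctional protein, which carries out the remaining steps for long chains, and the genes lie next to each other on chromosome 3. The HADHA locus ends at 33338485 and the HADHB locus begins at 33338760 in the muscle assembly (XLOC_023264 and XLOC_021941), and in the perirenal files HADHB has a second locus with 39 to 245 counts that was added to the first. HADHA increased from muscle (123 to 288 CPM, median 197) through subcutaneous (205 to 740 CPM, median 325) to perirenal tissue (402 to 1008 CPM, median 573). All 3 steps passed the test, at log2 differences of 0.78 from muscle to subcutaneous (SE 0.17, FDR 0.000201 by edgeR), 0.80 from subcutaneous to perirenal (SE 0.17, FDR 0.000169 by edgeR) and 1.57 from muscle to perirenal tissue (SE 0.18, FDR 1.4e-09 by edgeR). HADHB did not follow that order. It was lowest in muscle (136 to 192 CPM, median 168) and highest in subcutaneous tissue (216 to 575 CPM, median 325), with perirenal tissue between them (128 to 383 CPM, median 233). Subcutaneous pools were above every muscle pool (log2 1.07, SE 0.17, FDR 1.5e-06 by edgeR). Perirenal pools overlapped both other tissues, at 0.52 above muscle (SE 0.17, FDR 0.00559 by edgeR) and -0.55 against subcutaneous tissue (SE 0.17, FDR 0.00474 by edgeR).

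ACAA1, a 3-ketoacyl-CoA thiolase of peroxisomes that releases acetyl-CoA there, is on chromosome 19 from 11518751 to 11543751 in the muscle assembly (XLOC_013557). Perirenal pools held 24.3 to 49.2 CPM (median 34.6), muscle pools 14.0 to 28.2 CPM (median 21.9) and subcutaneous pools 10.2 to 42.4 CPM (median 17.9). Perirenal tissue was above muscle by 0.66 (SE 0.15, FDR 0.000226 by edgeR) and above subcutaneous tissue by 0.92 (SE 0.15, FDR 3.8e-06 by edgeR), with overlap in both. Subcutaneous tissue differed from muscle by -0.27 (SE 0.15, FDR 0.115 by edgeR). With the 12 pools as a block, which compares tissues of the same fetuses, that difference passed (log2 -0.30, FDR 0.0437 by edgeR), and it also passed without CN F1 or without DG F1 (FDR 0.0109 and 0.0425 by edgeR).

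The 3 subcutaneous pools richest in muscle markers (DG F1, HY F2 and DG M2) were left out to see how far they set these differences. The numbers of enzymes called did not change. This lowered but did not remove the muscle RNA, since CN F2 and DG F2 stayed in, with 50089 and 49581 CPM of muscle markers. CPT1A moved to 3.92 above muscle and CPT1B to -1.62 against muscle, both further apart than with all pools, and the step in CPT1A to perirenal tissue narrowed to 1.33 (FDR 6.5e-07 by edgeR).

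Ratios within a library do not depend on scaling, and their change between tissues does not depend on gene length, although the assembled loci differ somewhat between tissues. The ratio of CPT1B to CPT1A counts was between 3.56 and 7.66 in muscle (median 5.57), between 0.0506 and 0.937 in subcutaneous (median 0.162) and between 0.0580 and 0.135 in perirenal tissue (median 0.0798). In all 12 pools it was higher in muscle than in either depot. Paired by pool, the log2 ratio changed by -5.98 ± 0.55 from muscle to perirenal tissue (SD, n = 12 pools, exact sign-flip permutation test, p = 0.000488, the smallest it can give, adjusted p = 0.000732 over 6 tests). From muscle to subcutaneous tissue it changed by -5.12 ± 1.28 (exact permutation p = 0.000488, adjusted 0.000732), and from subcutaneous to perirenal tissue by -0.86 ± 1.34, lower in 8 of 12 pools (exact permutation p = 0.0459, adjusted 0.0459). The 4 pools with a higher perirenal ratio were CN M1, CN M2, DG M1 and HY M1, whose subcutaneous libraries held 834 to 9153 CPM of muscle markers. HY F1, with the least (762.59 CPM), went the other way (0.105 subcutaneous, 0.0925 perirenal). In subcutaneous tissue the ratio was highest (0.937) in DG F1, the pool with the most muscle marker RNA. The part of muscle RNA in the depot difference was not tested.

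The ratio of HADHA to HADHB counts, the 2 subunits of the same complex, was not constant. It ran from 0.724 to 1.58 in muscle (median 1.31), from 0.716 to 1.29 in subcutaneous (median 0.971) and from 1.25 to 3.89 in perirenal tissue (median 3.17). Every pool had its highest ratio in perirenal tissue, where the log2 ratio was 1.09 ± 0.57 above muscle and 1.38 ± 0.65 above subcutaneous tissue (SD, n = 12 pools, exact permutation p = 0.000488 and adjusted p = 0.000732 for both). Subcutaneous tissue was below muscle by a mean difference of -0.29 ± 0.33, in 10 of 12 pools (exact permutation p = 0.0112, adjusted 0.0135). The perirenal pools were uneven, with 4 of them between 1.25 and 2.01 (DG F2 at 1.25, HY M2 at 1.27, CN M1 at 1.49 and CN F1 at 2.01) and the other 8 between 2.96 and 3.89. Each diet contributed to the low values.

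**Figure D3:**
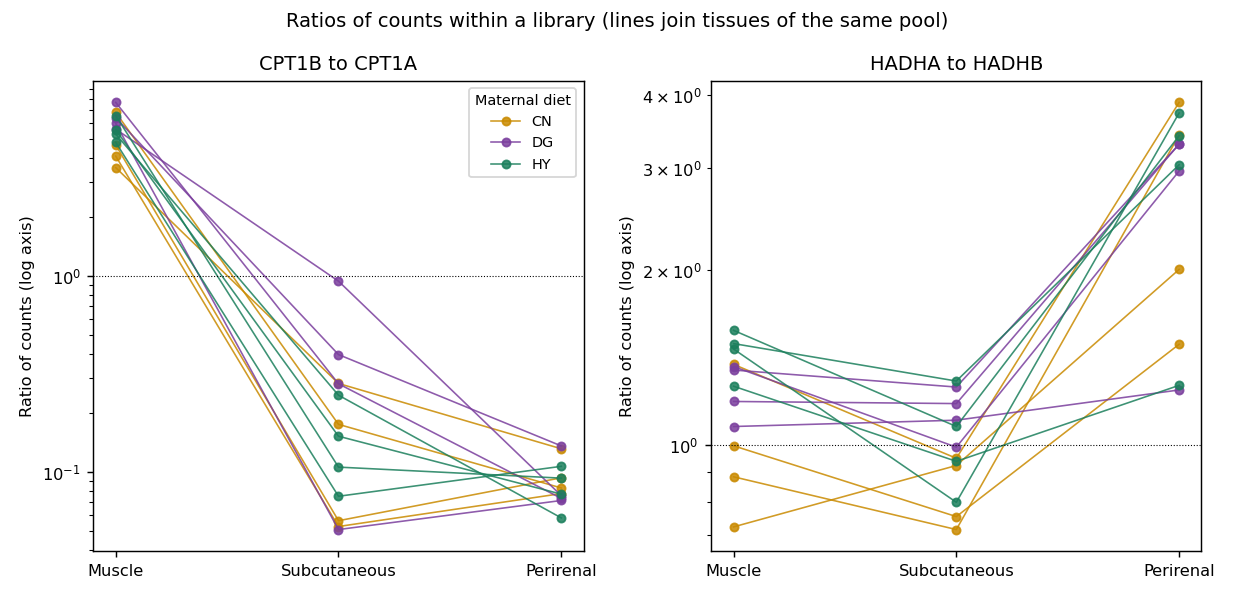
Ratio of CPT1B to CPT1A counts (left) and of HADHA to HADHB counts (right) in each library on log axes, with lines joining the tissues of the same pool and colours giving the maternal diet. CPT1B to CPT1A is above 3.5 in all 12 muscle pools and below 1 in all adipose pools, and HADHA to HADHB reaches its highest value in perirenal tissue in every pool.

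The diets were compared within each tissue by the same test over all 12 pools of that tissue. At FDR 0.05 none of the 8 enzymes passed in any of the 9 comparisons, and log2 differences were between -1.10 and 1.75. The count at a looser FDR of 0.20 is given beside each. The paper used another test, Cuffdiff, and its calls at FDR 0.05 differ from these. It names CPT1A among the genes differing in subcutaneous fat both between DG and CN and between DG and HY. In perirenal fat it names ACAA1 as higher in DG than in CN. Why the 2 tests differ was not tested.

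In fetal muscle no enzyme passed FDR 0.05 between CN and DG (0.976% of 18751 rows did) and 1, ACADVL, passed FDR 0.20 (7.06% of rows). Between CN and HY none passed FDR 0.05 (2.95% of rows) and 2, ACADVL and HADHA, passed FDR 0.20 (16.0% of rows). The number with an unadjusted p below 0.05 was 1 and 2 of the 8, against 16.4% and 20.4% of all rows (3081 and 3817), and DESeq2 called 1 in each comparison, ACADVL. All shares of rows are those of edgeR. The share of rows called by DESeq2 is not given here, so its calls have no background beside them. Between DG and HY none passed either threshold, none had an unadjusted p below 0.05 and DESeq2 called none, as 0.0% of all rows passed FDR 0.05 and 0.0% FDR 0.20 (412 rows had an unadjusted p below 0.05). The median log2 difference of the 8 enzymes was 0.13 in both comparisons with CN, against -0.00341 and -0.02 over all rows.

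HADHA in muscle was 123, 254, 153 and 156 CPM in the CN pools F1, F2, M1 and M2. The DG pools held 183, 194, 224 and 184 CPM, and the HY pools 288, 263, 264 and 200.9 CPM. Apart from CN F2, every CN pool was below every DG and HY pool. From CN to HY the log2 difference was 0.57 (SE 0.19, FDR 0.114 by edgeR) and from CN to DG 0.19 (SE 0.19, FDR 0.651 by edgeR). Without CN F2 the difference from CN to HY passed the threshold (log2 0.83, FDR 0.00966 by edgeR), and over all alternatives its FDR was between 0.00966 and 0.296. Its partner HADHB showed no such spread, with means of 171, 159 and 174 CPM in CN, DG and HY and log2 differences from CN of -0.11 and 0.04 (SE 0.11 for both, FDR 0.655 and 0.872 by edgeR). The ratio of HADHA to HADHB in muscle was 0.724, 1.38, 0.998 and 0.883 in the CN pools and between 1.08 and 1.58 in the 8 others.

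ACADVL in muscle was at 3, 14, 6 and 1 counts in the CN pools, at 42, 22, 29 and 20 counts in the DG pools and at 23, 39, 17 and 21 counts in the HY pools. The CN pools also had the lowest totals of the 3 diets, 13749762 to 19387181 counts against 20370147 to 29625146 in DG and 19071024 to 22831074 in HY. In CPM the CN pools (0.0736 to 0.791) were below every HY pool (0.968 to 1.80) and overlapped the DG pools (0.745 to 2.045). The log2 differences from CN were 1.75 for DG (SE 0.50, FDR 0.114 by edgeR) and 1.70 for HY (SE 0.51, FDR 0.0847 by edgeR). DESeq2 called both (FDR 0.0285 and 0.0228), and so did edgeR without CN F2 (FDR 0.0435 and 0.0231). DVL2, which shares the span, went the other way, with means of 91.3, 65.0 and 66.2 CPM in CN, DG and HY and log2 differences from CN of -0.49 and -0.45 (FDR 0.154 and 0.126 by edgeR). The part of library depth and of the shared span in the ACADVL values was not tested.

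The other 6 enzymes (CPT1A, CPT1B, CPT2, ACADL, HADHB and ACAA1) had log2 differences in muscle between -0.23 and 0.28 with FDR of at least 0.270 by edgeR in every comparison. CPT1A, for example, was 14.2, 17.4, 18.8 and 18.8 CPM in CN, 24.3, 12.6, 14.7 and 11.3 CPM in DG and 15.1, 17.5, 15.3 and 15.0 CPM in HY. The pools of the 3 diets overlapped, and DG F1 was above all others.

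**Figure D4:**
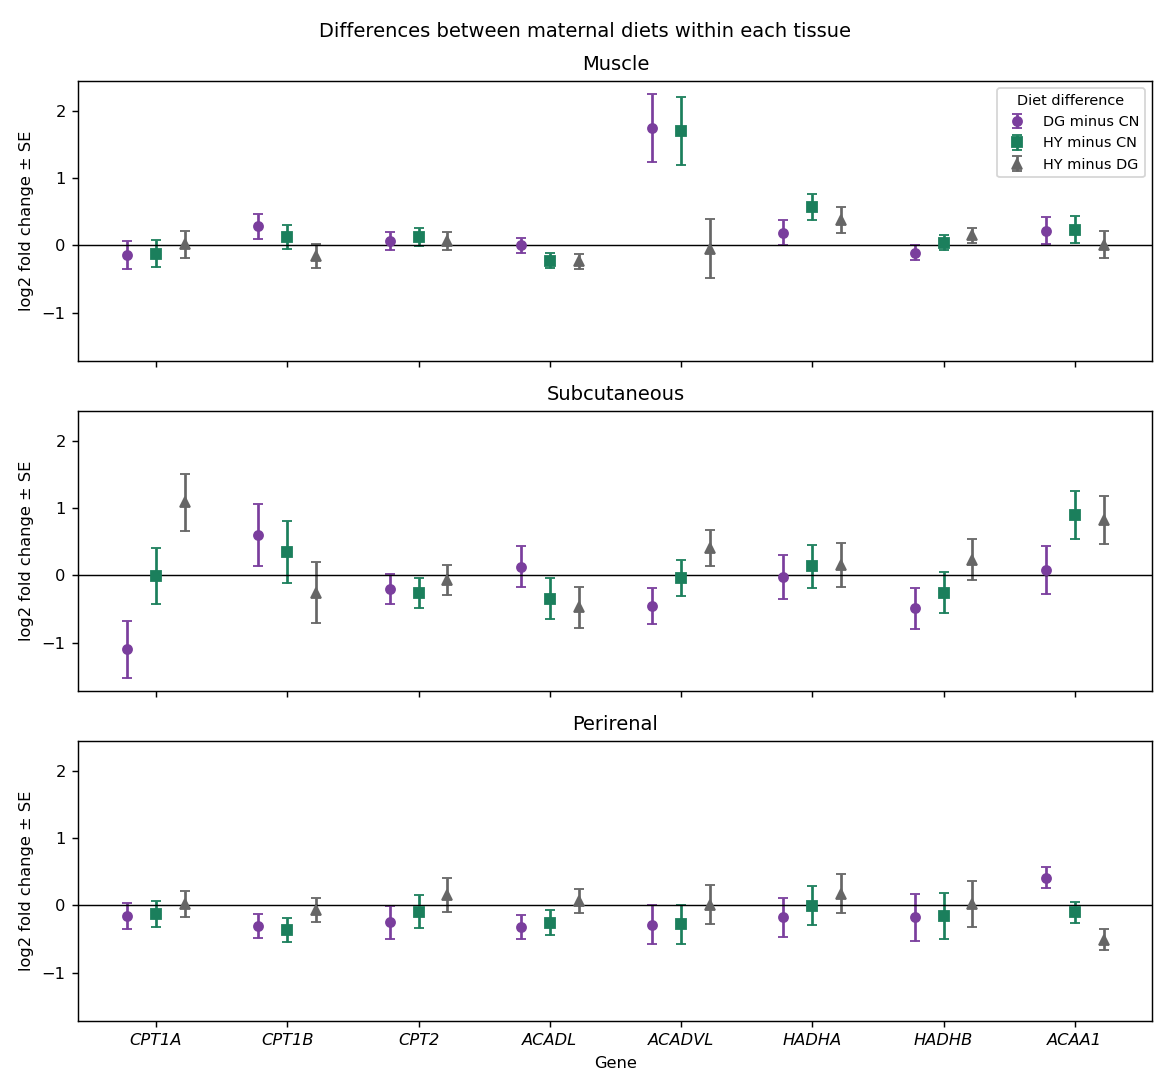
Log2 differences between maternal diets for the 8 enzymes in muscle, subcutaneous and perirenal adipose tissue, with bars of 1 standard error from the edgeR fit of the 12 pools of each tissue. No difference passed FDR 0.05. The widest errors are those of ACADVL in muscle, which had 1 to 42 counts per library, and of CPT1A and CPT1B in subcutaneous tissue.

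In subcutaneous adipose tissue no enzyme passed FDR 0.05 or 0.20 by edgeR, and DESeq2 called none. The background was 0.0% at FDR 0.05 and 0.0% at FDR 0.20 for CN vs. DG (2720 of 18198 rows had an unadjusted p below 0.05), 0.0% and 0.0% for CN vs. HY (802 rows) and 0.0% and 11.1% for DG vs. HY (3315 rows). Enzymes with an unadjusted p below 0.05 numbered 1, 1 and 2 of the 8 in the same order, namely CPT1A, ACAA1, and both, against 14.9%, 4.41% and 18.2% of all rows.

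Subcutaneous CPT1A was 202, 106, 399 and 401 CPM in the CN pools F1, F2, M1 and M2. It was 72.7, 143, 181 and 112 CPM in the DG pools and 438, 148, 298 and 249 CPM in the HY pools. The DG pools were low, but CN F2 and HY F2 lay among them. The log2 difference was -1.10 from CN to DG (SE 0.43, FDR 0.289 by edgeR) and 1.09 from DG to HY (SE 0.43, FDR 0.209 by edgeR). The muscle marker sum had a median of 13434 CPM in CN, 58693 CPM in DG and 6495 CPM in HY, so the diets also differed in this respect. With the muscle marker level as a covariate the differences were -0.82 (SE 0.28, FDR 0.169 by edgeR) and 0.63 (SE 0.28, FDR 0.279 by edgeR). Without the 3 pools richest in muscle markers, an alternative chosen after seeing the data that leaves 2 DG pools, they were -0.73 (SE 0.49, FDR 0.732 by edgeR) and 1.0005 (SE 0.52, FDR 0.374 by edgeR).

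Subcutaneous ACAA1 was 26.0, 10.4, 10.4 and 10.2 CPM in CN, 22.2, 13.8, 11.3 and 12.8 CPM in DG and 42.4, 22.1, 22.6 and 25.02 CPM in HY. In CN and DG the F1 pool stood above the other 3, and these others were all below the lowest HY pool. HY was above CN by 0.90 (SE 0.36, FDR 0.929 by edgeR) and above DG by 0.83 (SE 0.35, FDR 0.244 by edgeR). With the replicate numbers as a block the latter passed (log2 0.84, FDR 0.0469 by edgeR). Over all alternatives the FDR was between 0.107 and 1 for CN vs. HY and between 0.0469 and 0.541 for DG vs. HY.

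The remaining enzymes in subcutaneous tissue (CPT1B, CPT2, ACADL, ACADVL, HADHA and HADHB) had log2 differences between -0.49 and 0.60 with FDR of at least 0.412 by edgeR. ACADVL was 161, 168, 184 and 175 CPM in DG and 341, 185, 247 and 185 CPM in HY, which did not overlap, at a log2 difference of 0.41 (SE 0.26, FDR 0.419 by edgeR). HADHA was 740 CPM in HY F1 and between 205 and 412 CPM in the other 11 pools. Leaving out HY F1 turned its log2 differences with HY from 0.13 and 0.16 to -0.35 and -0.32.

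The enzymes moved in different directions with the muscle marker sum across the 12 subcutaneous pools. CPT1A fell as muscle markers increased (log2 against log2, Pearson r = -0.773, permutation p = 0.00428, adjusted p = 0.0342 over 8 enzymes; Spearman rho = -0.818, permutation p = 0.00168, adjusted 0.0134), and r was -0.902 without the 2 pools farthest from the median (HY F1 and DG M1). HADHB gave r = -0.690 (permutation p = 0.0166, adjusted 0.0505) and rho = -0.713 (permutation p = 0.0115, adjusted 0.0461), and ACADVL r = -0.638 (permutation p = 0.0263, adjusted 0.0505) and rho = -0.657 (permutation p = 0.0235, adjusted 0.0626). The 2 enzymes that were higher in muscle had positive values, CPT1B r = 0.622 (permutation p = 0.0316, adjusted 0.0505) with rho = 0.497 (permutation p = 0.106, adjusted 0.170) and ACADL r = 0.655 (permutation p = 0.0253, adjusted 0.0505) with rho = 0.559 (permutation p = 0.0625, adjusted 0.125). CPT2, HADHA and ACAA1 had r between -0.541 and -0.0989 with adjusted permutation p of at least 0.0985 for r and 0.176 for rho. Only CPT1A passed an adjusted 0.05 in both measures. All values of a pool share its library total.

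**Figure D5:**
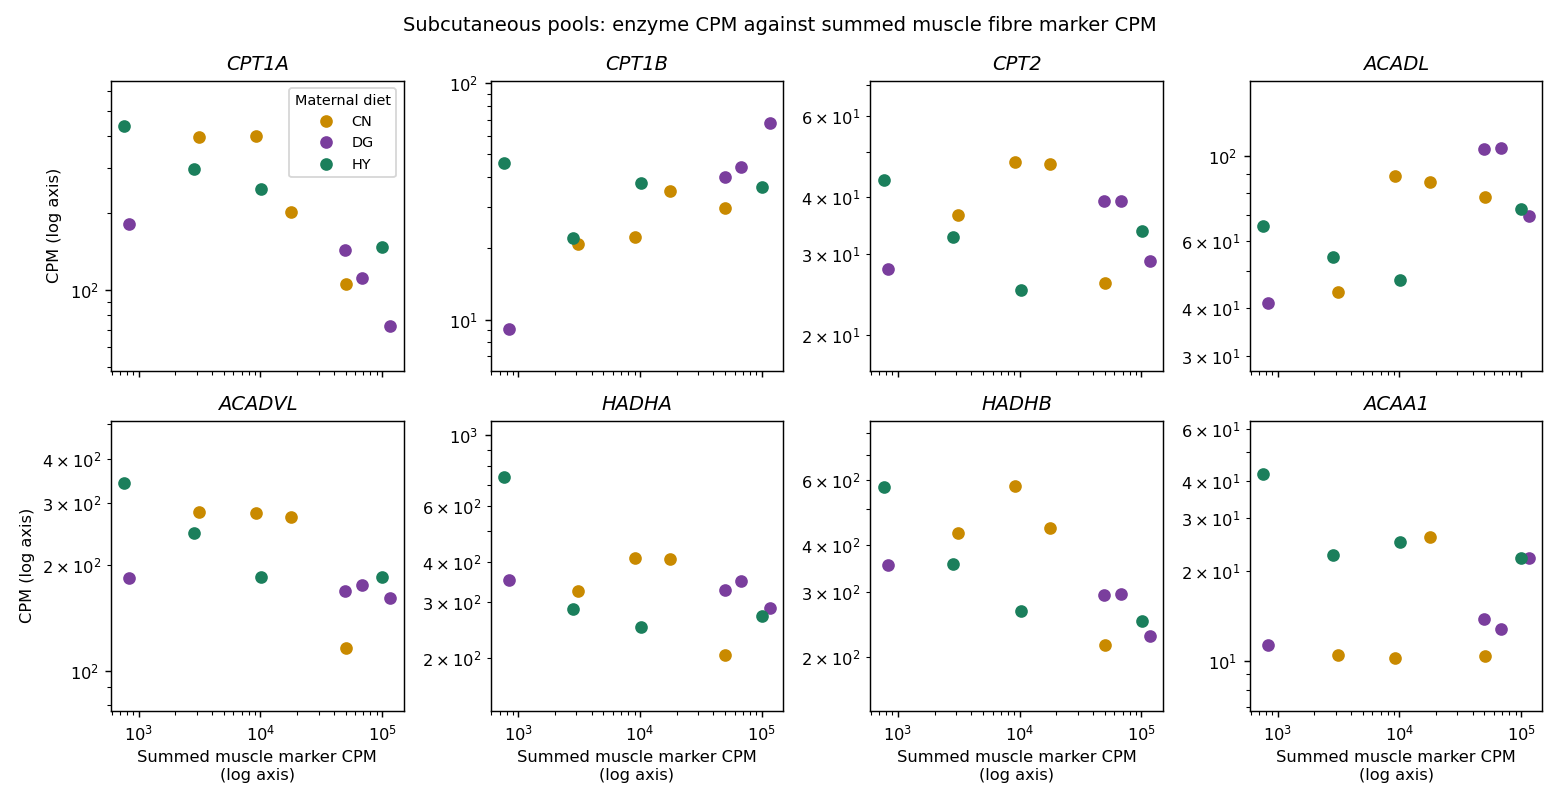
CPM of each enzyme (vertical, log axis) against the summed CPM of 10 skeletal muscle fibre markers (horizontal, log axis) in the 12 subcutaneous pools, coloured by maternal diet. CPT1A goes from 438 CPM in the pool with the least muscle marker RNA to 72.7 CPM in the pool with the most, and 3 of the 5 pools at or above 49581 marker CPM are DG pools.

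In perirenal adipose tissue no enzyme passed FDR 0.05 or 0.20 by edgeR, and DESeq2 called none. The background was 0.0% and 1.68% for CN vs. DG (1836 of 18389 rows had an unadjusted p below 0.05), 0.0% and 0.0% for CN vs. HY (430 rows) and 0.0% and 0.0% for DG vs. HY (1865 rows). Of the 8, only ACAA1 had an unadjusted p below 0.05, in CN vs. DG and in DG vs. HY, where 9.98% and 10.1% of all rows did. It was 27.0, 33.3, 29.8 and 37.3 CPM in CN, 47.9, 35.9, 41.0 and 49.2 CPM in DG and 30.6, 24.3, 36.3 and 27.4 CPM in HY. The DG pools were the high ones, with F2 reaching down into both other diets. The log2 difference was 0.41 from CN to DG (SE 0.16, FDR 0.371 by edgeR) and -0.51 from DG to HY (SE 0.16, FDR 0.326 by edgeR). Over all alternatives these FDR were between 0.280 and 0.561 and between 0.151 and 0.525.

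CPT1A, which was so much higher in this depot, was 547, 615, 813 and 614 CPM in the CN pools. It was 570, 670, 643 and 498 CPM in the DG pools and 475, 850, 530 and 520 CPM in the HY pools. The diets overlapped throughout, with log2 differences of -0.16, -0.13 and 0.03 (SE 0.19 for each, FDR at least 0.858 by edgeR). Of the 8 enzymes, 7 were below CN in DG and 8 were below CN in HY, counts that share the CN pools. The median log2 differences were -0.21 and -0.14 against -0.02 and 0.00905 over all rows. The share of all rows below CN was not counted. In HY the smallest difference was -0.00269, for HADHA. CPT1B had the largest of the differences in HY, -0.37 (SE 0.18, FDR 0.999 by edgeR). CPT2, ACADL, ACADVL, HADHA and HADHB had log2 differences between -0.32 and 0.17 over the 3 comparisons, with FDR of at least 0.612 by edgeR and overlapping pools in each. ACADL, for example, had means of 113 CPM in CN, 93.0 CPM in DG and 95.0 CPM in HY, and HADHA had 629, 570 and 625 CPM.

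Whether a diet difference varied between tissues was tested with edgeR in the fit of all 36 libraries. DESeq2 was run only on the libraries of the diets compared, with a likelihood ratio test, so its results rest on fewer libraries. No enzyme passed FDR 0.05 for CN vs. DG (0.00687% of 14565 genes did), where 1 enzyme had an unadjusted p below 0.05 (8.18% of genes did) and DESeq2 called 1, ACADVL. None passed for CN vs. HY (0.0% of genes, 1060 or 7.28% with an unadjusted p below 0.05), where 2 had an unadjusted p below 0.05 and DESeq2 called none. None passed for DG vs. HY (3.0% of genes), where 2 of the 8 had an unadjusted p below 0.05, against 20.3% of all genes (2956), and DESeq2 called 1, ACAA1. These shares of genes are again those of edgeR, and the share called by DESeq2 is not given here. For ACAA1 the HY value was above DG in subcutaneous tissue (log2 0.83), below it in perirenal tissue (-0.51) and near it in muscle (0.01), and the test of the difference gave an FDR of 0.0551 by edgeR. With the pools as a block, which pairs tissues of the same fetuses, its FDR was 0.0486, with totals alone 0.0307, without the 3 subcutaneous pools richest in muscle markers 0.0333 and with DESeq2 0.00558. Leaving out 1 pool in turn from all tissues gave 0.0161 to 0.283, and ACAA1 passed in 3 of these 12 fits. Of all 18 alternatives it passed in 7, so most did not call it. CPT1A had an FDR of 0.163 by edgeR in the same test, which became 0.0320 without HY F2. ACADVL for CN vs. DG, with its few muscle counts, had an FDR of 0.310 by edgeR and 0.0397 by DESeq2.

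The other genes of the pathway were followed as a list of 47 transporters, acyl-CoA synthetases, further enzymes of mitochondria and peroxisomes, and regulators, of which 43 were found. The list was written with earlier results of these data known. From muscle to perirenal tissue 34 of the 43 passed FDR 0.05, 23 of them higher in perirenal tissue (40.9% of all genes tested were) and 11 higher in muscle (39.3% of all genes), so the number called was near the background. The median log2 difference of the list was 0.56. Among the largest increases were those of ABCD2, a peroxisomal fatty acid transporter (log2 4.27, SE 0.41, FDR 4.0e-11 by edgeR), and the acyl-CoA synthetase ACSL6 (log2 3.02, SE 0.26, FDR 3.4e-12 by edgeR). In muscle ABCD2 had at most 0.231 CPM, so its difference rests on very few reads there. The 3 largest decreases were UCP3, an uncoupling protein of muscle (log2 -8.11, SE 0.47, FDR 3.5e-16 by edgeR), and the coactivators PPARGC1A (log2 -3.58, SE 0.20, FDR 4.6e-17 by edgeR) and PPARGC1B (log2 -3.40, SE 0.18, FDR 1.5e-17 by edgeR). UCP3 had at most 0.245 CPM in perirenal pools and at most 3.34 CPM in subcutaneous pools, with 0 the lowest value in both, so its differences with these tissues also rest on very few reads.

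From muscle to subcutaneous tissue 32 of 43 passed, 20 higher and 12 lower in subcutaneous tissue (36.5% and 36.6% of all genes), again near the background, with a median of 0.18. ABCD2 was again among the largest increases (log2 4.15, SE 0.41, FDR 1.3e-10 by edgeR), and behind it came SLC25A20, the carrier that moves acylcarnitines across the inner membrane (log2 1.995, SE 0.18, FDR 1.8e-11 by edgeR). UCP3 (log2 -4.83, SE 0.35), ACAD8, a dehydrogenase of valine breakdown (log2 -3.49, SE 0.22), and ACACB, which makes the malonyl-CoA that holds CPT1 in check (log2 -2.25, SE 0.20, FDR 1.2e-11 by edgeR), were the lowest relative to muscle. Between the depots 29 of 43 passed, 20 higher and 9 lower in perirenal tissue (35.3% and 32.6% of all genes), near the background in total, with a median of 0.16. Highest relative to subcutaneous tissue were ACOX2, a peroxisomal oxidase (log2 2.33, SE 0.25), ACSL6 (log2 1.57, SE 0.24) and ACADS, the short-chain dehydrogenase (log2 1.42, SE 0.19), and lowest were UCP3 (log2 -3.28, SE 0.58), PPARGC1B (log2 -2.65, SE 0.17) and PPARGC1A (log2 -2.62, SE 0.19). SLC25A20, with which CPT1A and CPT2 form the carnitine shuttle, had medians of 43.8, 145 and 302 CPM in muscle, subcutaneous and perirenal tissue, the same order as CPT1A.

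By diet, 41 genes of the list were tested in muscle, where 1 was higher in DG than in CN at FDR 0.05 (0.976% of all rows were called) and 3 were higher in HY than in CN (2.95% of all rows were called). PPARD, a nuclear receptor for fatty acids (log2 0.87, SE 0.22, FDR 0.0498 by edgeR), and ABCD3, a peroxisomal transporter (log2 0.44, SE 0.11, FDR 0.0487 by edgeR), passed between CN and HY, and the CN and HY pools did not overlap for either. No gene of the list passed FDR 0.05 in muscle between DG and HY or in either adipose depot by edgeR. Those with an unadjusted p below 0.05 are given with the share of all rows. In subcutaneous tissue they were 8 of 43 for CN vs. DG (14.9%), 3 for CN vs. HY (4.41%) and 9 for DG vs. HY (18.2%). In perirenal tissue they were 5 of 42 (9.98%), 0 (2.34%) and 7 (10.1%) in the same order. Muscle had 0 of 41 between DG and HY (2.20%). At FDR 0.20, 6 of 43 passed in subcutaneous tissue for DG vs. HY (11.1% of all rows). DESeq2 called 1 in subcutaneous tissue between DG and HY and none in the other comparisons of the adipose depots or between DG and HY in muscle.

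For each comparison with no call on that list, genes among the 3 of smallest unadjusted p are given, none of which passed. In muscle between DG and HY they were ACSL6 (log2 -0.65), ACSL3 (log2 0.22) and the carnitine transporter SLC22A5 (log2 -0.31), all with an FDR of 0.99995 by edgeR. In subcutaneous tissue between CN and DG they were PPARA, a nuclear receptor that controls fatty acid oxidation genes (log2 0.97, FDR 0.262 by edgeR), and the peroxisomal oxidase ACOX3 (log2 -0.54, FDR 0.290). Between CN and HY they were CROT, a carnitine octanoyltransferase of peroxisomes (log2 -0.52), and the thioesterase ACOT8 (log2 0.58), each with an FDR of 0.929 by edgeR. Between DG and HY they were CPT1C, the neuronal relative of CPT1A (log2 0.98, FDR 0.135 by edgeR), ACOX3 (log2 0.69, FDR 0.146) and ACADSB (log2 -0.62, FDR 0.163). In perirenal tissue ACSL3 and ACAD9 came up both between CN and DG (log2 -0.42 and 0.73, FDR 0.378 and 0.430 by edgeR) and between DG and HY (log2 0.55 and -0.94, FDR 0.317 and 0.357 by edgeR), comparisons that share the DG pools. With them came ACOT8 (log2 0.31, FDR 0.430) and ACSL4 (log2 0.38, FDR 0.373), and between CN and HY the 3 were PDK4, CRAT and ABCD3 (log2 0.41, -0.28 and 0.21, FDR 0.999 by edgeR).

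Within a tissue the enzymes did not all vary together from pool to pool. Of 84 pairs of enzymes over the 3 tissues (28 per tissue, n = 12 pools), 9 passed an adjusted permutation p of 0.05 in both Pearson and Spearman correlation of log2 CPM, 1 in muscle, 5 in subcutaneous and 3 in perirenal tissue. Median r was -0.02 in muscle, 0.39 in subcutaneous and 0.10 in perirenal tissue. In perirenal tissue CPT2 and HADHB gave r = 0.928 (permutation p = 1e-05, the smallest that the draws can give, adjusted 0.00084; Spearman rho = 0.895, permutation p = 0.00019, adjusted 0.00532; r = 0.877 without the 2 extreme pools), and ACADVL and HADHB gave r = 0.879 (permutation p = 0.00024, adjusted 0.00504; rho = 0.895, permutation p = 0.00019, adjusted 0.00532; 0.783 without 2). HADHA and HADHB, the subunits of the same protein, passed in subcutaneous tissue (r = 0.828, permutation p = 0.0002, adjusted 0.00504; rho = 0.818, permutation p = 0.00196, adjusted 0.0274; 0.776 without 2) but not in perirenal tissue or muscle. In muscle the pair was CPT2 and HADHB (r = 0.842, permutation p = 0.00048, adjusted 0.00784; rho = 0.776, permutation p = 0.00417, adjusted 0.0389; 0.605 without 2). The subcutaneous pairs share the unequal muscle RNA described above.

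Over all 36 libraries, the genes whose log2 CPM followed the mean standardised level of the 8 enzymes most closely were ETFDH (r = 0.917), HSD17B10 (r = 0.888), ABHD11 (r = 0.885), MRPL37 (r = 0.882) and LACTB2 (r = 0.881). ETFDH passes electrons from acyl-CoA dehydrogenases to the respiratory chain, and HSD17B10 is a mitochondrial dehydrogenase that acts on short-chain substrates. All 5 had their highest median in perirenal tissue, for ETFDH 314 CPM against 194 CPM in subcutaneous tissue and 162 CPM in muscle. Without ACADVL in the mean, the 5 were AIFM1, ETFDH, COX5B, CHCHD5 and GSTK1 (r from 0.856 to 0.881). These values are a description of the libraries of 3 tissues together.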

How the data were processed

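RNA-seq was done on 36 libraries, each a pool of fetuses of the same sex and maternal diet (a single fetus for CN F2), for 3 tissues. The authors deposited counts of reads per assembled locus, 1 file per library, with loci assembled separately for each tissue. The submitters' processing notes name TopHat2 2.0.4, Cufflinks 2.1.1, HTSeq and the build Oar_v3.1, and strand settings of the counting are not given in the sources used here. Library totals ranged from 6705766 to 29625146 counts. The enzymes had at least 70 counts in every library, apart from ACADVL in muscle with 1 to 42.

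Loci of the same name were summed, and a locus of several names was added to each. Tests used edgeR 4.0.16 (limma 3.58.1, R 4.3.3): filterByExpr (minimum count 10, minimum total 15), TMM scaling, the robust quasi-likelihood F test and Benjamini-Hochberg adjustment over all rows tested, with FDR thresholds of 0.05 and 0.20. Diets were tested within each tissue over its 12 pools (each tissue scaled on its own), and tissues and the tissue-by-diet interaction over 36 libraries and the gene names found in all 3 tissues. CPM in the text are from the scaling over 36 libraries. Ratios and correlations used scipy 1.17.1 with numpy 2.4.6, pandas 2.3.3 and Python 3.11.15, and plots matplotlib 3.10.9. The members, gene lists and tests were chosen with earlier results of these data known.

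All 8 members are covered in each comparison between tissues or diets, some only by the range of their values. From a list of 47 pathway genes (43 found; ACAD10, ETFA, ETFB and MLYCD were not analysed here) it names the 3 largest log2 differences in each direction past FDR 0.05 or, in a diet comparison with none, the 3 of smallest unadjusted p. Some genes this rule would name are not reported here. It also names the 5 genes of highest Pearson correlation with the mean standardised level of the members.

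Pairs of pools of the same group differed by more than sampling noise (chi-square per degree of freedom from 9.84 to 287 over 54 pairs), so none was merged. The same pool gave all 3 tissues, so tissues are paired by design, with mean correlations of deviations from the group means of 0.14 (muscle and perirenal), 0.085 (muscle and subcutaneous) and 0.0484 (subcutaneous and perirenal). Alternatives were DESeq2 1.42.0, other scalings, no filter, separate loci, only the pools compared, a block, a muscle marker covariate and each pool left out. The scripts were tested on simulated data.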

Additional observations from a re-analysis of the deposited data

Results flagged for a closer look

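In 6 of 72 groups of 4 pools (8 enzymes, 3 tissues, 3 diets), 1 pool lay far from the other 3 by Dixon's test. Chance alone puts about 1 in 20 groups there. HADHA in subcutaneous tissue was 740 CPM in HY F1 against 250 to 284 CPM in the other HY pools. ACAA1 in subcutaneous tissue was 42.4 CPM in the same pool against 22.1 to 25.02 CPM, and 26.0 CPM in CN F1 against 10.2 to 10.4 CPM. ACADVL in subcutaneous tissue was low in CN F2, at 116 CPM against 272 to 282 CPM. CPT1A stood high in HY F2 in muscle, at 17.5 CPM against 15.0 to 15.3 CPM, and in perirenal tissue of the same pool, at 850 CPM against 475 to 530 CPM. In subcutaneous tissue HY F1 held the least muscle marker RNA of the 12 pools (762.59 CPM) and CN F2 the fourth most (50089 CPM), and whether this has a part in their values was not tested.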

How the results depend on the processing

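Of 2232 values of single enzymes under an alternative, 2194 were classed as unchanged. These kept their side of the threshold and their direction, except that 113 changed sign within 1 SE while not called. Of the rest, 22 passed the threshold anew, 7 lost it and 9 changed direction by more than 1 SE. The number of enzymes called became 1 with DESeq2 in muscle for both comparisons with CN (ACADVL) and in the interactions for CN vs. DG (ACADVL) and DG vs. HY (ACAA1). It was also 1 in that last interaction with total counts only, with the replicate block of 12 pools and without the 3 subcutaneous pools highest in muscle markers, an alternative chosen after seeing the data. Leaving out 1 pool in turn gave 0 to 1 for CN vs. DG and 0 to 2 for CN vs. HY in muscle (both set by CN F2), 0 to 1 in the interaction for CN vs. HY (CN F1) and 0 to 2 for DG vs. HY (CN F1, DG F1 or HY F2). Replicate numbers within a tissue share only a sex and a number (mean correlation -0.0394 in muscle, 0.193 in subcutaneous and 0.0649 in perirenal tissue). With them as a replicate block 1 enzyme, ACAA1, was called in subcutaneous tissue for DG vs. HY, and no other number of enzymes called between diets changed. Values that changed direction by more than 1 SE were CPT1B in subcutaneous tissue for CN vs. DG (-0.10 without the 3 pools) and for DG vs. HY (0.40 with the muscle marker covariate, 0.48 without the 3 pools), and CPT2 between muscle and subcutaneous tissue (0.063 with total counts only). With single pools left out, CPT1B in muscle for DG vs. HY ran from -0.27 to 0.026, HADHA in subcutaneous tissue from -0.35 to 0.36 for CN vs. HY and from -0.32 to 0.36 for DG vs. HY, and, in perirenal tissue for DG vs. HY, CPT1A from -0.19 to 0.11 and HADHA from -0.16 to 0.41. None of these was called, and the cause was not tested. ACADVL in muscle rests on 1 to 42 counts per library.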
